A study of Mus musculus with 8 samples.

Results

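DNA methyltransferases, TET dioxygenases and the core of Polycomb repressive complex 2 (PRC2) were followed in peritoneal mast cells (PMCs) of the mouse, in 10 genes picked by name out of the 55359 genes of the deposited count table. The genes are Dnmt1, Dnmt3a, Dnmt3b, Uhrf1, Tet1, Tet2, Tet3, Ezh2, Suz12 and Eed. All 10 had a row in the table and passed the filter on low counts. RNA was sequenced from 8 untreated cultures of cells from mice on a mixed C57BL/6x129/Sv background. PMC-303 and PMC-306 are lines that arose spontaneously in aged PMC cultures, each with 1 library. The labels give no sex for them, while the study's karyotyping found PMC-306 to be male. The study derived PMC-306 from WT cells, but its karyotyping found chromosome aberrations in both lines. PMC-306 had a heterozygous deletion that includes the Cdkn2a locus. In part of its cells it also had a translocation between Y and chromosome 17, the chromosome of Uhrf1, whose part in the results was not tested. Most analysed spreads of PMC-303 had a trisomy 8. The comparison is with 6 primary WT PMC cultures, 3 from female and 3 from male mice. The age of the donor mice is not given in the sources used here, nor is it stated that either line is a single clone. Both lines were also kept in less serum and less stem cell factor than the primary cultures. The study grew PMC-306 in the richer medium too and reports unaltered RNA of Cdkn2a, Arf, several proteases and Mrgprb2. It names none of the 10 genes there, so that for them medium and transformation cannot be told apart. In bulk RNA, fewer cells that express a gene and less RNA of it per cell cannot be told apart either.

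DNMT3A and DNMT3B place methyl groups on unmethylated CpG sites, whereas DNMT1 copies an existing pattern onto the new strand behind the replication fork, to which it is guided by UHRF1. The TET dioxygenases oxidise the methyl group, after which it can be lost by dilution or by base excision. PRC2 methylates a lysine of histone H3 at silenced genes, with EZH2 as the catalytic subunit and SUZ12 and EED as the subunits without which EZH2 is inactive. In mast cells, loss of TET2 and of DNMT3A is known to alter differentiation and mediator responses, and mutations of these genes accompany human mastocytosis.

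The libraries held between 15918757 and 24180226 estimated counts. Levels are in CPM, estimated counts brought to a common library size after TMM scaling (trimmed mean of M values), and a difference is given as log2 of CPM + 0.1 with its standard error (SE). Both lines together were tested against the 6 primary cultures with limma, with Benjamini-Hochberg adjustment over 14525 genes. A gene is said to be higher or lower where its adjusted p was under 0.05. All p-values measure the spread between these cultures. Neither line has a second library, so where one of the lines is left out the p-value takes its spread from the primary cultures, as which the lone library is assumed to vary. The mast cell genes Kit, Fcer1a, Cpa3 and Cma1 were abundant in every library, with at least 1323 CPM. Some of the other mast cell markers were less so, among them Hdc with 6.19 to 42.4 CPM and Fcer1g with 131 to 224 CPM. Of 10 mast cell markers 0 were higher and 4 lower in the lines (18.3% and 15.5% of all genes). Scaling by total counts gave 1 higher and 4 lower. The sum of the 10 markers was 43585 (PMC-303) and 40330 CPM (PMC-306) in the lines, while primary cultures had 47070 to 73864 CPM. The largest falls among them were those of Anpep (CD13), with a log2 fold of -2.68 (SE 0.20), and of the IgE receptor chain Fcer1a, with -1.36 (SE 0.24). The summed level of 4 B cell, 5 T cell, 5 neutrophil and 5 stromal markers was at most 3.47 CPM per list in every library, of which Cd4 made up 3.22 CPM in male culture 1. The sum of 6 macrophage markers was 427 CPM in PMC-306, of which Adgre1 was 426 CPM, and between 2.43 and 64.5 CPM in the other libraries, while the highest value of C1qa, C1qb, Csf1r and Cd14 in any library was 0.23 CPM. Female culture 2 and male culture 3 stood apart in the remaining markers of this list, with 46.4 and 25.3 CPM of Adgre1 against 3.37 to 4.35 CPM in the other primary cultures, and with 18.0 and 5.72 CPM of Lyz2 against 1.18 to 2.35 CPM. Lyz2 had 0.247 (PMC-303) and 1.13 CPM (PMC-306). The part of these markers in the results below was not tested.

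The promoters of the 4 genes that were higher in the lines under every setting tried are shown first, since the regulation of replication genes by E2F factors is well known and the letters of E2F sites can be read directly. Each window runs from 250 bases before to 30 bases after the start of the canonical GENCODE transcript on GRCm39. Printed 5′ to 3′ on the strand of the gene, capitals mark the E2F-like letters TTCCCGC or a variant of them, on either strand. The variants searched were TTGGCGC, then also the form TTCGCGC, and as the last of these TTGCCGC. The window of Dnmt1 is chr9:20864246-20864525, that of Uhrf1 chr17:56610025-56610304, that of Ezh2 chr6:47572238-47572517 and that of Suz12 chr11:79883646-79883925. Dnmt1 and Ezh2 lie on the minus and Uhrf1 and Suz12 on the plus strand.
Dnmt1: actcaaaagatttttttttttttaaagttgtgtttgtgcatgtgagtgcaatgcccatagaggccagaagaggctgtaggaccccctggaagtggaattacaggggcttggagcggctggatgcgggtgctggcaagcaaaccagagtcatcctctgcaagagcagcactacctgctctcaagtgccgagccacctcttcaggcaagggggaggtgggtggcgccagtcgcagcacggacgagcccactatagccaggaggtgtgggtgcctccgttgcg
Uhrf1: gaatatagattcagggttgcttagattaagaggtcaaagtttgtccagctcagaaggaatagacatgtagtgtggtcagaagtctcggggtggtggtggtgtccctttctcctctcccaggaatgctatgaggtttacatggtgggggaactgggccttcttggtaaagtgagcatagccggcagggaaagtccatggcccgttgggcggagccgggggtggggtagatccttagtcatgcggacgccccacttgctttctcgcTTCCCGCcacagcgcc
Ezh2: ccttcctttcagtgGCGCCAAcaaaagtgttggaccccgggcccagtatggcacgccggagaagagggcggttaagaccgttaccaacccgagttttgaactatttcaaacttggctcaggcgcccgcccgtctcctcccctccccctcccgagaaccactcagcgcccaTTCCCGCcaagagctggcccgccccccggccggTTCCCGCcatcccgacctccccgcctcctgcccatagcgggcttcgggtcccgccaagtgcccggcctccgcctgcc
Suz12: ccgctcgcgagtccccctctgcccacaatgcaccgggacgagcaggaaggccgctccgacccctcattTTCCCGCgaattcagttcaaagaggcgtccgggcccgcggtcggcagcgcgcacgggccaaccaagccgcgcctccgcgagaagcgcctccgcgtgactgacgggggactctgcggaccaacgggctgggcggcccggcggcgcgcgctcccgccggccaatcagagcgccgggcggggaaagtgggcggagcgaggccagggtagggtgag
Of the 10 promoters 3 held such a match, those of Uhrf1, Ezh2 and Suz12, against 10.2% of 21757 promoters of protein-coding genes in windows of the same length. Counted from the start as base 1, the match of Uhrf1 begins at base 15, in the transcribed part. Those of Ezh2 begin at -236, -80 and -47, and that of Suz12 at -182. The Dnmt1 window, whose gene had a larger fold than Ezh2 and Suz12, holds none of these letters. The E-box letters CACGTG were present in the promoters of Tet2 and Tet3 (7.35% of all promoters), and GGGCGG on either strand in 8 of the 10 (40.7% of all). CCAAT was found in 3 of the 10 (38.8% of all) and TTTGAA in 4 (16.4% of all), also on both strands. Matches of different motifs were counted separately even where they overlapped, and the motifs were chosen with the expression values known. A match is a description of the letters and not of binding. CpG, the sequence that these enzymes methylate and oxidise, was counted in each window. Dnmt3a held 44, Tet3 42, Suz12 40 and Ezh2 24, above the upper quartile of all promoters, which was 19. The median of all promoters was 9, and 8 of the 10 lay above it, Uhrf1 with 10. Dnmt1 held 9 and the annotated canonical start of Tet1 held 5.

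Most of the 10 genes were higher in the lines and none was lower. With limma, 8 of 10 were higher (adjusted p under 0.05), where this held for 18.3% of all genes tested, and 0 of 10 were lower, where 15.5% of all genes were. Both lines lay above all 6 primary cultures for 8 of the 10 genes (22.9% of all genes) and below all of them for 0 (20.1% of all genes). The median log2 fold of the 10 genes was 0.68, and that of all genes tested was -0.01. Dnmt1, Uhrf1, Ezh2 and Suz12 stayed higher under each of 18 other settings, among them other scalings, the 3 female or the 3 male primary cultures alone and the omission of each library. The calls of Dnmt3a, Tet1, Tet2 and Eed were lost under 3 to 12 of these settings. Without PMC-303, 5 of the 10 genes were higher. Without both female culture 2 and male culture 3, a setting chosen after seeing the data, 6 were higher, with the calls of Dnmt3a (adjusted p = 0.0982 by limma) and Tet2 (adjusted p = 0.0662 by limma) lost. Over all genes, limma called 2660 higher and 2254 lower. Scaling by total counts moved the median of all genes by 0.11 and gave 3406 and 1665 (67.2% higher against 54.1%), and the deposited TPM gave 2342 and 965 (70.8% higher). The log2 folds of the 10 genes were positive under all of these scalings.

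**Figure D1:**
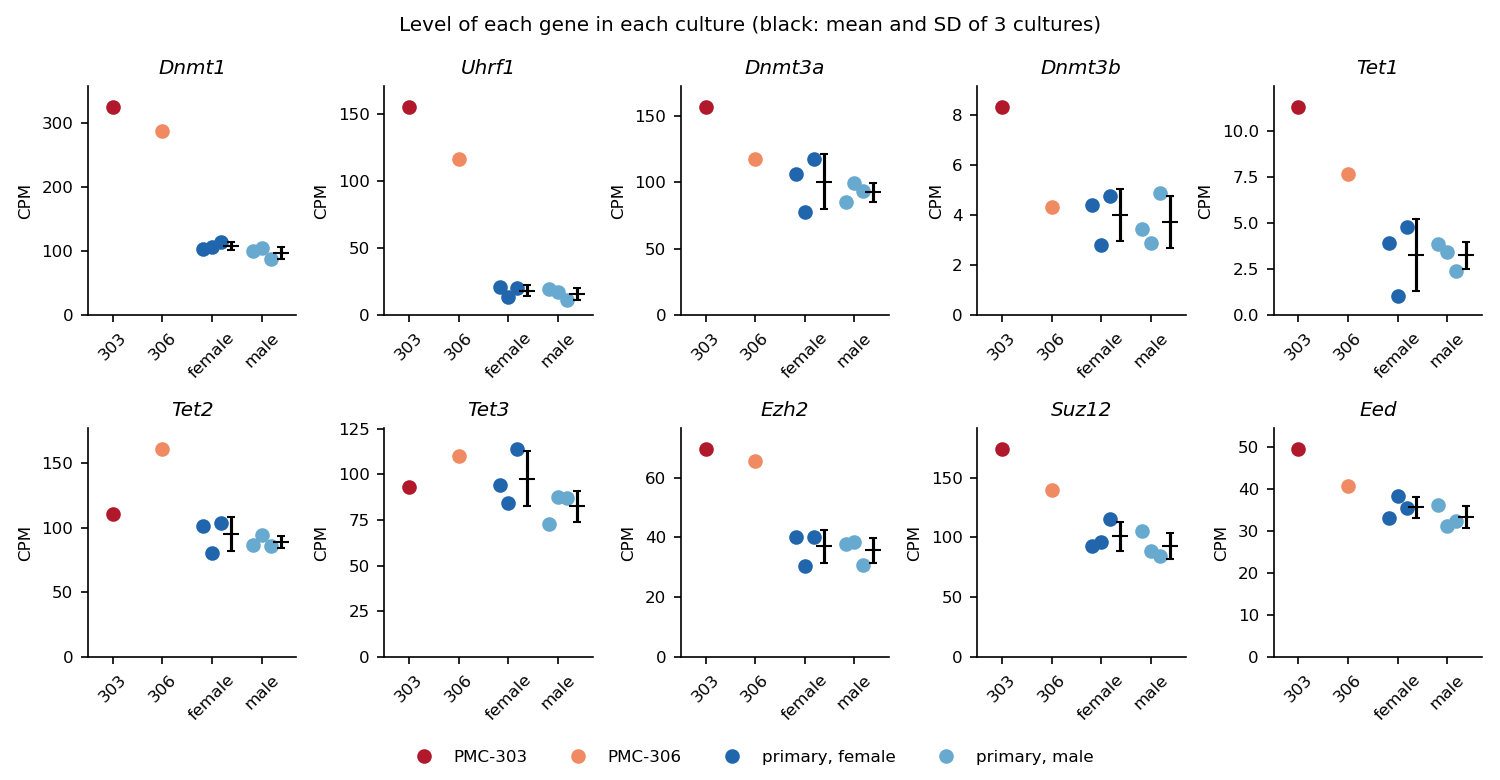
Level of the 10 genes in CPM (vertical axes, from 0) in PMC-303, PMC-306 and the female and male primary cultures, 1 point per library, with the mean and SD of 3 cultures in black. Both lines stand far above the primary cultures for Uhrf1 and Dnmt1, whereas Dnmt3b in PMC-306 (4.32 CPM) and Tet3 in both lines fall within the primary range.

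Both genes of the maintenance pair were higher in the lines. Uhrf1 (ENSMUSG00000001228.15, chromosome 17, 56610275 to 56630489, plus strand), which binds hemimethylated CpG and recruits DNMT1, had 155 (PMC-303) and 116 CPM (PMC-306). In the female primary cultures 1 to 3 it had 20.7, 13.5 and 20 CPM, and in the male cultures 19.8, 17.2 and 10.9 CPM. Both lines were thus above every primary culture, and among the latter female culture 2 and male culture 3 were lowest. The log2 fold of 3.01 (SE 0.26, adjusted p = 0.000119 by limma) corresponds to 8.05-fold and was the largest of the 10 genes.

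Dnmt1 (ENSMUSG00000004099.17, chromosome 9, 20817945 to 20871184, minus strand) had 325 (PMC-303) and 288 CPM (PMC-306). The female primary cultures had 103, 106 and 114 CPM and the male ones 100, 104 and 87.0 CPM, so that no primary culture came near the lines. The log2 fold was 1.58 (SE 0.10, adjusted p = 5.58e-05 by limma), or 2.99-fold. The log2 ratio of Uhrf1 to Dnmt1 CPM, which does not depend on library scaling, was -1.07 in PMC-303 and -1.31 in PMC-306 but between -2.99 and -2.31 in the primary cultures. Uhrf2, the paralogue of Uhrf1, had 80.4 and 81.8 CPM in the lines against 57.6 ± 5.39 CPM (SD, n = 6) and a log2 fold of 0.50 (SE 0.10, adjusted p = 0.00561 by limma). Uhrf1 relative to Uhrf2, as a log2 ratio, was 0.95 in PMC-303 and 0.50 in PMC-306 and at most -1.38 in the primary cultures.

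Transcripts of Dnmt1 begin at annotated starts that lie some distance apart, the canonical start of Dnmt1-201 with its neighbours and an upstream start of Dnmt1-202. The upstream transcript took 34.5% of the estimated Dnmt1 counts in PMC-303, 30.5% in PMC-306 and between 18.9% and 30.1% in the primary cultures. Both lines were above the primary range, PMC-306 by a small margin, and no test was made. Assignment between overlapping transcripts is an estimate. For Uhrf1, Tet1 and Eed it changed widely between primary cultures (for 1 transcript of Tet1 from 0% to 100% of the counts), and no shares of start sites are given for these genes. For Dnmt3a, between 91.3% and 98.4% of the counts in all libraries fell to the transcripts from the upstream, long-form starts.

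Of the de novo enzymes, Dnmt3a was higher and Dnmt3b did not pass the test. Dnmt3a (ENSMUSG00000020661.16, chromosome 12, 3856007 to 3964443, plus strand), the main de novo enzyme of blood cells, had 157 (PMC-303) and 118 CPM (PMC-306). The female cultures had 106, 77.4 and 118 CPM and the male cultures 85.2, 99.6 and 93.4 CPM. PMC-306 thus exceeded the highest primary culture, female culture 3, by less than the rounding of these values, and PMC-303 was well above it. The log2 fold was 0.51 (SE 0.17, adjusted p = 0.0459 by limma). The call was lost in 12 of 18 other settings. Without PMC-303 the log2 fold was 0.30 and the adjusted p by limma 0.315, and without female culture 1 or 2 or male culture 1, 2 or 3 the adjusted p lay between 0.0549 and 0.079.

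Dnmt3b (ENSMUSG00000027478.16, chromosome 2, 153490861 to 153529650, plus strand), the de novo enzyme that is prominent in embryonic cells, was low throughout. It had 8.31 CPM (202 counts) in PMC-303 and 4.32 CPM (88 counts) in PMC-306. The primary cultures had 4.41, 2.81 and 4.75 CPM (female) and 3.42, 2.86 and 4.88 CPM (male), so that PMC-306 lay within their range. Its log2 fold of 0.66 (SE 0.32) did not pass the test (adjusted p = 0.143 by limma). The catalytically inactive cofactor Dnmt3l had 0 counts in all 8 libraries, which allows up to 3 counts or between 0.124 and 0.188 CPM per library, for counting error only. The log2 ratio of Dnmt1 to Dnmt3a, maintenance to de novo enzyme, was 1.05 in PMC-303 and 1.29 in PMC-306 and between -0.10 and 0.46 in the primary cultures.

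Of the TET genes, Tet1 and Tet2 were higher and Tet3 did not pass the test. Tet1 (ENSMUSG00000047146.18, chromosome 10, 62640349 to 62744775, minus strand) is best known from embryonic stem cells and was the scarcest of the 3. PMC-303 had 11.3 CPM (274 counts) and PMC-306 7.66 CPM (156 counts), while the female primary cultures had 3.90, 1.05 and 4.80 CPM and the male ones 3.88, 3.42 and 2.41 CPM. Both lines lay above the primary range, in which female culture 2, with 24 counts, was lowest. The log2 fold of 1.63 (SE 0.50, adjusted p = 0.0367 by limma) had the largest error of the 10 genes. The adjusted p by limma was 0.192 without PMC-303, 0.0813 without PMC-306, 0.0561 without male culture 2 and 0.0621 without male culture 3.

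Tet2 (ENSMUSG00000040943.13, chromosome 3, 133169436 to 133250900, minus strand), the TET gene most often mutated in myeloid disease and mastocytosis, was highest in PMC-306, with 161 CPM, and had 111 CPM in PMC-303. The female primary cultures had 101, 80.1 and 104 CPM and the male cultures 86.6, 94.2 and 85.9 CPM. PMC-303 was only a little above the highest of them. The log2 fold was 0.54 (SE 0.15, adjusted p = 0.0229 by limma), and without PMC-306 it was 0.28 with an adjusted p of 0.202 by limma.

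Tet3 (ENSMUSG00000034832.16, chromosome 6, 83339355 to 83436066, minus strand) had 93.3 (PMC-303) and 110 CPM (PMC-306). The female primary cultures had 94.3, 84.4 and 114 CPM and the male cultures 72.7, 87.6 and 87.3 CPM, a range that holds both lines. Its log2 fold of 0.18 (SE 0.15) did not pass the test (adjusted p = 0.381 by limma). The lines lay on opposite sides of the primary cultures in the balance of Dnmt3a and Tet2. The log2 ratio of Dnmt3a to Tet2 was between -0.05 and 0.18 in the primary cultures, 0.50 in PMC-303 and -0.45 in PMC-306.

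The 3 core subunits of PRC2 were all higher in the lines, with the largest fold for Ezh2. Ezh2 (ENSMUSG00000029687.17, chromosome 6, 47507073 to 47572331, minus strand) had 69.6 (PMC-303) and 65.5 CPM (PMC-306). The female primary cultures had 40.3, 30.6 and 40.1 CPM and the male ones 37.8, 38.3 and 30.8 CPM. The groups were well apart, and the lowest primary cultures were again female culture 2 and male culture 3. The log2 fold was 0.90 (SE 0.13, adjusted p = 0.0012 by limma), or 1.87-fold.

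Suz12 (ENSMUSG00000017548.16, chromosome 11, 79883891 to 79925421, plus strand), the scaffold of the complex, had 174 (PMC-303) and 140 CPM (PMC-306), against 92.5, 95.8 and 115 CPM in female and 105, 88.8 and 84.8 CPM in male primary cultures. Both lines exceeded every primary culture, and the log2 fold was 0.69 (SE 0.13, adjusted p = 0.00448 by limma). Eed (ENSMUSG00000030619.11, chromosome 7, 89603862 to 89630217, minus strand), whose product binds the methylated histone tail, had 49.6 (PMC-303) and 40.7 CPM (PMC-306). Its primary values were 33.1, 38.3 and 35.5 CPM (female) and 36.2, 31.2 and 32.4 CPM (male), so that PMC-306 was close to female culture 2. The log2 fold of 0.39 (SE 0.11, adjusted p = 0.0239 by limma) was 0.24 without PMC-303 (adjusted p = 0.184 by limma). For Ezh2 to Eed the log2 ratio was 0.49 in PMC-303 and 0.68 in PMC-306, above the primary range from -0.32 to 0.30. The log2 ratio of Ezh2 to Suz12, at -1.32 in PMC-303, was within the primary range from -1.64 to -1.20, and in PMC-306 it was -1.10.

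Ezh1, which encodes the alternative catalytic subunit of resting cells, was split between the lines. It had 55.9 CPM in PMC-303, below all primary cultures, and 99.8 CPM in PMC-306, above all of them (62.4 to 79.5 CPM), and its log2 fold of 0.11 (SE 0.19) did not pass the test (adjusted p = 0.694 by limma). The log2 fold of PMC-306 alone was 0.53 and that of PMC-303 alone -0.31. As a log2 ratio, Ezh2 to Ezh1 was 0.32 in PMC-303 and -0.61 in PMC-306, against -1.36 to -0.63 in the primary cultures. Both lines were above the primary cultures in this ratio, PMC-306 by a small margin.

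**Figure D2:**
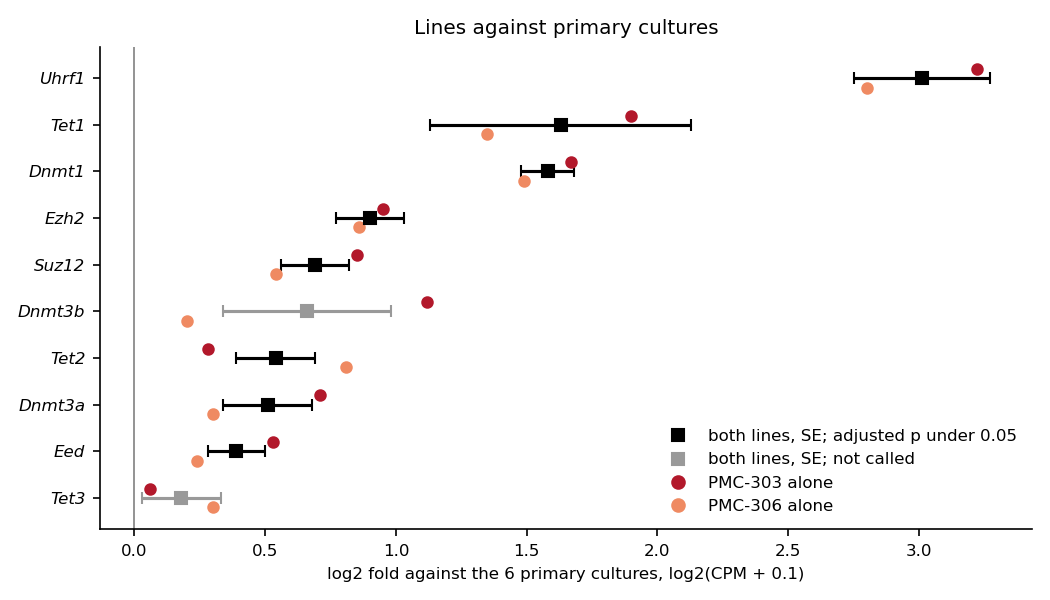
Log2 fold of each of the 10 genes against the 6 primary cultures on the scale log2(CPM + 0.1), with squares and SE bars for both lines together (black where adjusted p was under 0.05, grey where not) and points for each line alone. Uhrf1 stands apart at 3.01, and PMC-306 is the higher line for Tet2 and Tet3 only.

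Between the lines, PMC-303 had the higher level for 8 of the 10 genes. The share of all genes with the higher level in PMC-303 was not computed, so this count is not read as a trait of these genes. The ratio of PMC-303 to PMC-306 was 1.92 for Dnmt3b (exact 95% binomial interval 1.49 to 2.50), 1.47 for Tet1 (1.21 to 1.80) and 1.34 for Uhrf1 (1.27 to 1.41). It was 0.69 for Tet2 (0.655 to 0.726) and 0.846 for Tet3 (0.798 to 0.897). For Ezh2 the ratio was 1.06 and the interval, from 0.988 to 1.14, included equal levels. These intervals cover counting error only, and the spread between cultures of a line is unknown.

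Levels of different genes can be compared only per length, for which the deposited TPM were used, which divide by transcript length as well as by library size. In the primary cultures the order was Eed (31.4 ± 3.76 TPM, SD, n = 6), Suz12 (29.0 ± 5.69), Dnmt1 (23.6 ± 4.37), Ezh2 (21.5 ± 5.08), Dnmt3a (18.5 ± 2.61), Tet2 (18.1 ± 3.19), Tet3 (11.5 ± 2.23), Uhrf1 (6.26 ± 2.25), Dnmt3b (1.55 ± 0.403) and Tet1 (0.519 ± 0.284). The ranges of neighbours overlapped from Eed down to Uhrf1, while Uhrf1, Dnmt3b and Tet1 were apart from each other. In the lines Dnmt1 led, with 74.3 TPM in PMC-303 and 67.1 TPM in PMC-306. Uhrf1, with 52.4 and 40.5 TPM, had passed Ezh2 (40.9 and 35 TPM), Dnmt3a, Tet2 and Tet3 in both. It was also above Eed in PMC-303 (51.1 TPM) but not in PMC-306 (45.7 TPM). TPM values of Uhrf1, Eed and Tet1 depend on the unstable assignment of transcripts of different length.

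The primary cultures varied among themselves, and not to the same degree for each gene. The coefficient of variation over the 6 cultures was lowest for Eed (7.74%), Dnmt1 (8.78%) and Tet2 (10.2%) and highest for Uhrf1 (23.5%), Dnmt3b (24.4%) and Tet1 (40.8%). Dnmt3b and Tet1 had the fewest counts. The sexes were also compared. Between female and male primary cultures 0 of the 10 genes passed limma's test (0.0438% of all genes did), 0 had an unadjusted p under 0.05, and with voom weights both numbers were 0 as well. The log2 folds of female minus male lay between -0.21 (Tet1) and 0.24 (Tet3).

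A score of 24 replication genes, among them Mki67, Top2a, Rrm2 and Prim1 and none of the 10 enzymes, was used to describe replication in each culture. Its mean log2(CPM + 0.1) was 6.66 in PMC-303 and 6.29 in PMC-306. It was 4.43, 4.02 and 4.28 in the female and 4.40, 4.31 and 3.66 in the male primary cultures. Of the 24 genes 23 were higher and 0 lower in the lines (18.3% and 15.5% of all genes), with a median log2 fold of 2.43. Mki67 had 1015 and 835 CPM in the lines and 74.1 ± 30.9 CPM (SD, n = 6) in the primary cultures, a log2 fold of 3.77 (SE 0.48), Rrm2 had 3.57 (SE 0.37), Top2a 3.43 (SE 0.36) and Prim1 3.08 (SE 0.37). Over the 6 primary cultures, the level of Uhrf1 had a Pearson r of 0.97 with this score (exact permutation p = 0.0125, adjusted p = 0.125 over 10 relations) and a Spearman rho of 0.83 (exact permutation p = 0.0583, adjusted p = 0.583). For Ezh2 r was 0.87 (exact permutation p = 0.0458, adjusted p = 0.229) and rho 0.71 (exact permutation p = 0.136, adjusted p = 0.681). No relation passed the adjustment, and the smallest two-sided p that 720 pairings allow is 0.00278. Without female culture 2 and male culture 3, the cultures farthest from the median score, r was 0.50 for Uhrf1 and -0.04 for Ezh2 over 4 cultures, so that these values rest on that pair of cultures, which are also those with the most Adgre1 and Lyz2. The part of these markers in the relation was not tested. The other 8 genes had r between -0.23 (Dnmt3b) and 0.67 (Dnmt1), with exact permutation p of at least 0.175, and for Dnmt1 r was -0.38 without male culture 3.

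**Figure D3:**
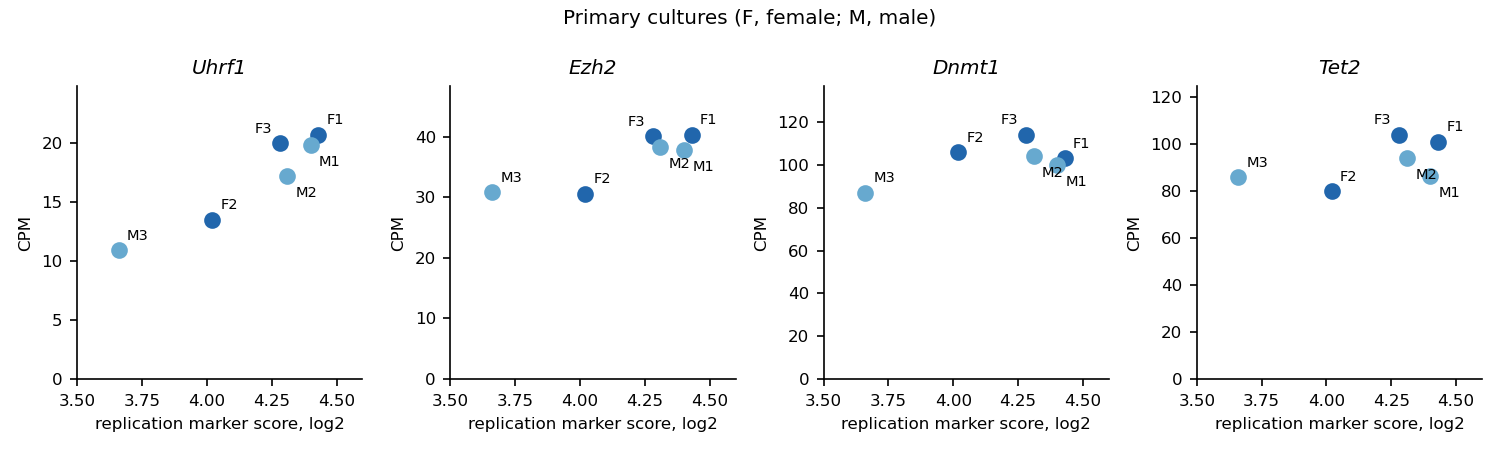
Level of Uhrf1, Ezh2, Dnmt1 and Tet2 in CPM (vertical axes) against the score of 24 replication genes (horizontal axis, mean log2(CPM + 0.1)) in the 6 primary cultures, F for female and M for male, 1 point per culture. M3 and F2 have the lowest score and the lowest Uhrf1, with 10.9 and 13.5 CPM, while Dnmt1 in F2 (106 CPM) is as high as in the other cultures.

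Set against this score within each library, Uhrf1 was the only one of the 10 genes to lie above its primary range in both lines. The log2 level of Uhrf1 minus the score was 0.62 in PMC-303 and 0.56 in PMC-306, and between -0.26 and 0.05 in the primary cultures. For Dnmt1 the difference was 1.69 and 1.88, below the primary range from 2.25 to 2.78, and for Ezh2 it was -0.53 and -0.26, below 0.85 to 1.29. Tet1 was within its primary range, and the remaining 6 genes were below theirs in both lines. The score itself was 6.66 in PMC-303 and 6.29 in PMC-306, against 3.66 to 4.43 in the primary cultures. By arithmetic, a gene whose fold is well below that rise of the score falls in this difference. In the same way a gene whose fold is larger than that rise, such as Uhrf1, goes up in it. The share of all genes above or below their primary range on this measure was not computed. In the primary cultures the 5 genes with the pattern most like Uhrf1, among 8574 with a mean of at least 10 CPM, were Racgap1, Vps35l, Hmmr, Cenpe and Incenp, with Pearson r between 0.990 and 0.994 over 6 cultures. As the highest of 8574 values over 6 cultures, these r are large by selection. They were not computed again without female culture 2 and male culture 3. Racgap1, Hmmr, Cenpe and Incenp had log2 folds between 2.72 and 3.42 in the lines, whereas that of Vps35l was 0.02.

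Partners of the maintenance machinery were mostly higher as well. Of 14 genes, Dnmt3l and Dppa3 were too low to test. Of the 12 tested 10 were higher and 1 was lower (18.3% and 15.5% of all genes), with a median log2 fold of 0.60. The remodeller Hells, which opens chromatin for methylation, had 71.3 (PMC-303) and 54.3 CPM (PMC-306) and 5.72 to 11.0 CPM in primary cultures, a log2 fold of 2.84 (SE 0.24, adjusted p = 0.000113 by limma). Its activator Cdca7 had a log2 fold of 2.86 (SE 0.26) and the related Cdca7l one of 2.23 (SE 0.20). Lig1, the ligase that joins replication fragments and is itself a target of UHRF1 binding, had 2.52 (SE 0.23). The imprint-binding factor Zfp57 was lower, with a log2 fold of -1.67 (SE 0.55, adjusted p = 0.046 by limma), but it had at most 1.12 CPM, and the call held in 3 of 18 other settings. It was lost without PMC-303, PMC-306, female culture 1, 2 or 3 or male culture 1 or 2.

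Among 15 genes that act with or after the TET enzymes, 6 of 14 tested were higher and 4 lower (18.3% and 15.5% of all genes), with a median of 0.16. These counts were 3 and 2 without PMC-303, 2 and 3 without PMC-306, and 2 and 1 without both female culture 2 and male culture 3. With male culture 2 left out 4 were higher and 2 lower, and 4 were higher without female culture 1 or male culture 1 or 3. Tdg, the glycosylase that removes oxidised methylcytosine, had 58.1 and 60.2 CPM in the lines against 29.1 ± 11.2 CPM (SD, n = 6) and a log2 fold of 1.09 (SE 0.30, adjusted p = 0.0242 by limma). Female culture 3 was highest among the primary cultures, with 50.7 CPM, and the others had at most 29.0 CPM. The adjusted p of Tdg by limma was 0.0909 without PMC-303 and 0.106 without PMC-306. Idh2 and Idh1, which supply the cosubstrate of TET and of other dioxygenases, had log2 folds of 1.02 (SE 0.15) and 1.03 (SE 0.34), and that of Idh1, with 65.7 (PMC-306) and 33.0 CPM (PMC-303), was 0.53 without PMC-306 (adjusted p = 0.35 by limma). The adjusted p of Idh1 lay between 0.0542 and 0.0787 without female culture 1 or 2 or male culture 1, 2 or 3. Cxxc5, a CXXC zinc finger protein related to the DNA-binding part lost from TET2, had the largest fall, from 34.5 ± 5.98 CPM (SD, n = 6) to 3.83 (PMC-303) and 3.34 CPM (PMC-306), a log2 fold of -3.21 (SE 0.20, adjusted p = 5.42e-05 by limma). Gadd45a, a stress gene also linked to active demethylation, had 0.288 (PMC-303) and 5.21 CPM (PMC-306) against 7.22 to 13.2 CPM, with a log2 fold of -2.83 (SE 0.80) that was -0.95 without PMC-303 (adjusted p = 0.104 by limma).

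Of 9 methyl-CpG readers 0 were higher and 3 were lower (18.3% and 15.5% of all genes), with a median log2 fold of -0.25. Those lower were Zbtb38, with 313 (PMC-303) and 156 CPM (PMC-306) against 363 to 431 CPM, Zbtb4, with 56.7 and 48.5 CPM against 91.0 to 107 CPM, and Mbd1, with 125 and 114 CPM against 138 to 147 CPM. In the cycle that renews the methyl donor, 4 of 10 genes were higher and 1 lower (18.3% and 15.5% of all genes), with a median of 0.10, and 0 were lower without PMC-306, female culture 1 or 2 or male culture 1 or 3. The serine and folate enzymes Shmt1, Shmt2 and Mthfd1 had log2 folds of 1.43 (SE 0.22), 1.32 (SE 0.10) and 1.28 (SE 0.12), whereas Mat2a, which makes the methyl donor itself, had 0.10 (SE 0.08, adjusted p = 0.344 by limma).

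Of 12 further PRC2 genes, 11 were tested, 3 were higher and 2 lower (18.3% and 15.5% of all genes), with a median of 0.11. Scaling by total counts gave 5 higher and 1 lower, and 1 was lower without PMC-303 or male culture 2. The histone chaperone Rbbp7, a core partner of SUZ12, had 144 and 153 CPM in the lines against 45.3 ± 4.76 CPM (SD, n = 6) and a log2 fold of 1.72 (SE 0.11, adjusted p = 5.58e-05 by limma), and its paralogue Rbbp4 had 0.55 (SE 0.06, adjusted p = 0.000256 by limma). Phf19, an accessory subunit that brings PRC2 to CpG islands, had 22.9 and 23.1 CPM against 3.27 ± 0.835 CPM (SD, n = 6) and a log2 fold of 2.82 (SE 0.28). Phf1 of the same family was lower, with -0.68 (SE 0.09), and for the third of them, Mtf2, the log2 fold of 0.29 (SE 0.11) did not pass the test. Jarid2 had a log2 fold of -0.14 (SE 0.09, adjusted p = 0.261 by limma). In PRC1, the complex that reads the mark of PRC2, 4 of 20 genes were higher and 2 lower, near the shares of all genes (18.3% and 15.5%), with a median of 0.09. Scaling by total counts gave 7 higher and 1 lower, and 1 was lower without female culture 3 or male culture 1, 2 or 3. Cbx2, a reader of that mark, was higher, with 4.45 and 4.12 CPM against 1.27 ± 0.412 CPM (SD, n = 6), and Pcgf5 had a log2 fold of 1.13 (SE 0.23).

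Among 11 genes that oppose Polycomb, 2 of 10 tested were higher and 3 lower (18.3% and 15.5% of all genes), with a median of -0.16. Without PMC-303 1 was higher and 1 lower, and without PMC-306 1 was higher and 2 were lower. The lower count was 2 without female culture 1 or 3 or male culture 2 or 3 and 4 without female culture 2. Nsd2, which places an activating mark that PRC2 cannot overwrite, had a log2 fold of 1.92 (SE 0.25, adjusted p = 0.000703 by limma). The demethylase Kdm6b was lower (log2 fold -0.37, SE 0.11, adjusted p = 0.034 by limma), a call that held in 6 of 18 other settings and was lost without PMC-303, PMC-306, female culture 1 or 3 or male culture 2 or 3. The X-linked demethylase Kdm6a had 152 CPM in PMC-303 and 140 to 145 CPM in female cultures, and 79.8 CPM in PMC-306 and 73.0 to 81.2 CPM in male cultures. Its log2 fold over both lines was 0.07 (SE 0.35, adjusted p = 0.904 by limma), and it was -0.40 without PMC-303 and between -0.04 and -0.01 without a male culture.

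**Figure D4:**
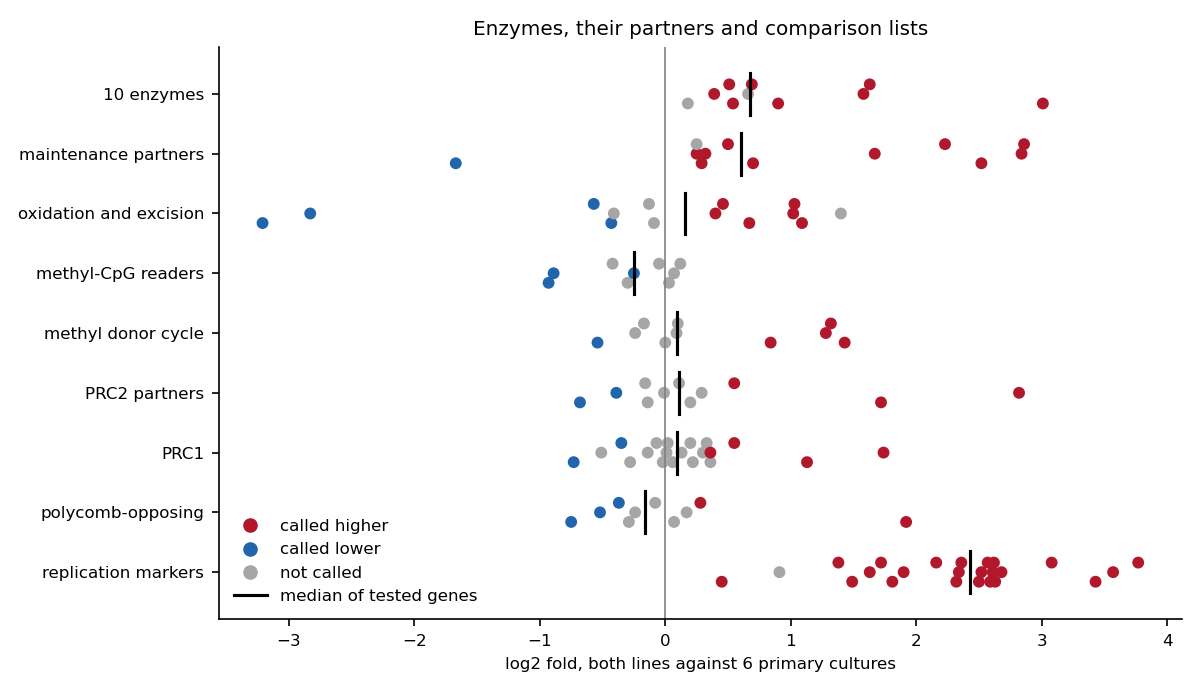
Log2 fold of both lines against the 6 primary cultures (horizontal axis) for each tested gene of 9 lists (rows), red where called higher, blue where called lower and grey where not called, with the median of a list as a black bar. The replication markers have a median of 2.43, the 10 enzymes 0.68 and the maintenance partners 0.60, while the other lists have medians between -0.25 and 0.16.

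Few genes that DNA methylation or PRC2 keeps silent in most tissues reached the level needed for a test. Of 16 germline genes known to be silenced by promoter methylation, 13 had at most 3 counts in every library and 2 could be tested. Dazl had 4.20 and 2.60 CPM in the lines and 1.29 to 4.96 CPM in the primary cultures, and Ddx4 was lower in the lines, with 1.11 and 0.344 CPM against 2.20 to 3.21 CPM (log2 fold -1.99, SE 0.36, adjusted p = 0.00354 by limma). Against the female cultures alone the adjusted p of Ddx4 by limma was 0.0581. Of 39 Hox genes, the only Polycomb targets looked at, 38 were under 1 CPM in every library. The exception was Hoxb4, with 2.92 CPM in PMC-303, 5.40 CPM in PMC-306 and 3.32 to 6.23 CPM in the primary cultures, and its log2 fold of -0.25 (SE 0.30) did not pass the test (adjusted p = 0.559 by limma). Without PMC-303 it was 0.18. Hoxb13, named after its values were seen, had 0 counts in all 6 primary cultures, 0.0412 CPM in PMC-303 and 20 counts (0.982 CPM) in PMC-306, and it passed the test without the filter on low counts and without PMC-303. Without the filter the germline gene Taf7l, with at most 1 count in any library, passed too. DNA methylation and histone marks themselves were not analysed here.

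Transcripts with retained introns were also quantified. The share of a gene's estimated counts that was assigned to transcripts annotated as retained intron could be followed for 8 of the 10 genes, which had at least 200 counts in every library and a mean share of at least 1%. For Tet2 it was 22.8% in PMC-303 and 26.7% in PMC-306 and between 30.2% and 36.8% in the primary cultures. For Ezh2 it was 10.9% and 10.2%, against 14.7% to 26.9%, and for Dnmt3a 3.94% and 5.79%, against 6.79% to 10.2%. Both lines were below all primary cultures for these 3 of the 8 genes, where this held for 10.9% of 4316 genes, and above all of them for 0, where this held for 3.13%. The share of Tet3, with 9.58% and 12.3%, overlapped the primary range from 10.7% to 19.1%. No test was made of these shares, which rest on the same assignment of transcripts.

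**Figure D5:**
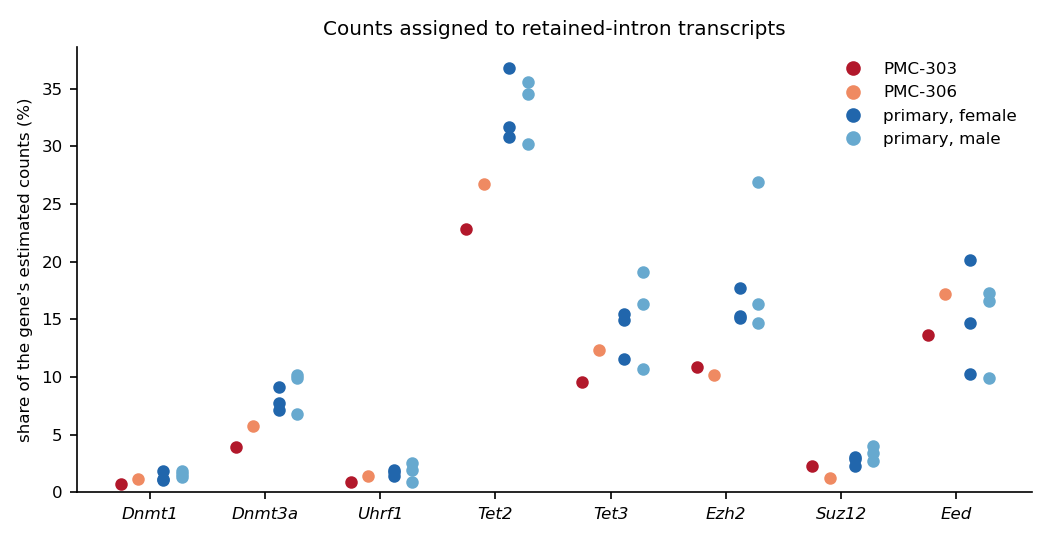
Share of the estimated counts of 8 genes (percent, vertical axis, from 0) that was assigned to transcripts annotated as retained intron, 1 point per library. In Tet2, Ezh2 and Dnmt3a both lines lie below all 6 primary cultures, and for Ezh2 male primary culture 2 is highest with 26.9%.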

How the data were processed

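RNA of 8 untreated peritoneal mast cell cultures was sequenced as stranded total RNA. Per the labels and the study's methods, reads were trimmed with Trim Galore 0.6.7, aligned with STAR 2.7.9a and quantified with Salmon 1.5.2 on GRCm39, and the authors deposited estimated counts and TPM values per gene and per transcript. A spreadsheet had rewritten part of the deposited numbers as dates or without their decimal point. A script restored 3.37% of the gene count cells and 3.22% of the transcript count cells. Of 381 date cells with 2 possible readings, 6 took the second because it matched the sum of the transcripts, and 99.7% of gene counts then lay within 0.2 of that sum, with a largest difference of 1.53. In the deposited TPM, 9308 decimal points were set from the counts, and the columns then summed to between 998445 and 999943. Since cells had been rewritten, the values were not used as raw counts in a count model.

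Library sizes were scaled by TMM, with factors between 0.941 and 1.070. Genes passed a filter of about 10 counts in enough libraries and 15 counts in all. The log2(CPM + 0.1) values were tested with limma 3.58.1 in R 4.3.3 with the variance trend on and p adjusted by Benjamini-Hochberg, in 2 lines against 6 primary cultures and, separately, in 3 female against 3 male primary cultures. The tests were checked on simulated counts with known changes. These counts were drawn with the same spread in every library, so the check cannot tell whether the lines vary as the primary cultures do. Libraries held 15918757 to 24180226 counts, so that 3 counts equal 0.124 to 0.188 CPM. No 2 primary libraries agreed within sampling noise (chi-square per degree of freedom 20.6 to 68.1). Correlations used exact permutation tests over 720 pairings. Promoters were read from GRCm39 with GENCODE starts. All deposited columns matched a sample (0 were left out).

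The members and gene lists were chosen with earlier results of these data known. Besides the 10 enzymes, genes were named where limma called them with a log2 fold of at least 1 in size (at most the 4 largest per list and direction), where they are direct partners, and, for Hox and germline genes, where any library reached 1 CPM. The 5 genes most like Uhrf1 were named by Pearson r. Mat2a, Mtf2, Phf1, Mbd1, Zbtb4, Zbtb38, Lyz2, Hoxb13, Taf7l, Cd4, Adgre1, Kit, Cpa3, Cma1, Hdc and Fcer1g were named after their values were seen. Other settings were total-count scaling, other offsets, no filter, voom weights, the deposited TPM, 1 sex of primary cultures, a replicate block, the omission of each library and, added after seeing the data, the omission of female culture 2 together with male culture 3. The result of 1 gene is not reported here.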

Additional observations from a re-analysis of the deposited data

Results flagged for a closer look

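In a search of 66 measures over the 6 primary cultures for 1 culture far from the others, 3 were found, where chance gives about 3.3. Tdg had 50.7 CPM in female culture 3, and the next culture had 29.0 CPM. Cxxc5 had 23.0 CPM in male culture 3, and the next had 34.0 CPM. The retained-intron share of Ezh2 was 26.9% in male culture 2, and the next was 17.7%.

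Among 12 ratios and 43 genes, 1 of each placed the lines on opposite sides of all primary cultures, and with 1 library per line these differences were not tested. The log2 ratio of Dnmt3a to Tet2 was 0.50 in PMC-303 and -0.45 in PMC-306. Ezh1 had 55.9 (PMC-303) and 99.8 CPM (PMC-306). Outside that search the macrophage marker Adgre1 was placed likewise, with 2.10 CPM in PMC-303, 426 CPM in PMC-306 and 3.37 to 46.4 CPM in the primary cultures.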

How the results depend on the processing

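With 1 library per line, the fit assumes that the lines vary as the primary cultures do, and a lone line after an omission is assumed to do so too. The number of the 10 genes called higher was 8, and it was 5 with the deposited TPM, 4 against the female and 5 against the male cultures alone, and 5 to 8 when single libraries were left out. Over all genes 4914 were called, against 2158 with the female and 3027 with the male cultures alone, where fewer samples entered, and between 2158 and 5071 over all settings.

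Calls of Dnmt1, Uhrf1, Ezh2 and Suz12 held in all 18 settings, with a highest adjusted p by limma of 0.0498, and Dnmt3b and Tet3 passed in 0. Calls were lost without the filter for Dnmt3a (log2 fold 0.51) and Tet1 (1.63), with voom weights for Dnmt3a (0.51), and with TPM for Dnmt3a (0.39), Tet1 (1.30) and Tet2 (0.56). Against female cultures alone they were lost for Dnmt3a (0.46), Tet1 (1.73), Tet2 (0.50) and Eed (0.34), and against male cultures alone for Dnmt3a (0.55), Tet2 (0.59) and Eed (0.44). Without both female culture 2 and male culture 3 they were lost for Dnmt3a (0.42) and Tet2 (0.47), and so were those of Tdg, Idh1, Gadd45a and Kdm6b. Against female cultures alone the adjusted p by limma was 0.0589 for Uhrf2, 0.0565 for Fcer1a, 0.0709 for Pcgf5 and 0.0581 for Ddx4. With single libraries left out, the log2 folds ranged from 0.30 to 0.71 for Dnmt3a, 1.35 to 1.90 for Tet1, 0.28 to 0.81 for Tet2 and 0.24 to 0.53 for Eed. Besides fewer samples or more genes tested, the cause was not tested.

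Directions turned only among values that had not passed the test under the settings used above, with no library left out. Jarid2 had 0.03 with TPM, and Kdm6a -0.36 against female cultures alone and -0.40 to 0.53 with single libraries left out. Leave-one-out ranges were -0.68 to 0.18 for Hoxb4 and -0.31 to 0.53 for Ezh1. Both genes were lowest without PMC-306 and highest without PMC-303, so that their direction depended on which line was kept. Of 594 other values for genes beside the 10 enzymes, 536 kept direction and side of the threshold and 8 turned. Between the sexes, Tet1 had 0.12 with TPM, and leave-one-out log2 folds ranged from -0.03 to 0.27 for Dnmt3a, -0.07 to 0.33 for Dnmt3b, -0.05 to 0.39 for Uhrf1, -0.61 to 0.43 for Tet1 and -0.05 to 0.18 for Ezh2. The r with the replication score was -0.05 for Eed with Mki67 alone, and ranged over omissions from -0.38 to 0.77 for Dnmt1, -0.47 to 0.52 for Dnmt3b, -0.14 to 0.43 for Tet3 and -0.59 to 0.33 for Eed.

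Female and male cultures share replicate numbers, but the deviations of same-numbered cultures correlated at 0.40, -0.22 and 0.28, so that the numbers do not pair them. With a replicate block, 0 of the 10 genes were called between the sexes, as without it, and 5 genes in all were called against 6.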
